A study of Rattus norvegicus with 25 samples.

Results

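The 8 genes described here are the 4 reticulons Rtn1, Rtn2, Rtn3 and Rtn4, the 3 Nogo receptor genes Rtn4r, Rtn4rl1 and Rtn4rl2, and Lingo1, which encodes a co-receptor of the Nogo receptor. They were taken by gene name, ignoring case, from 26312 gene identifiers, and each name matched 1 identifier in both tables. The set was chosen because Rtn3 and Rtn4 were higher in the dentate gyrus of stress-low animals. The 2 dentate gyrus contrasts that involve stress-low animals are therefore given below as a description, with no test of the 8 genes. All animals were wild-type adult male Sprague-Dawley rats. Stressed rats spent 3 h immobilized while exposed to a predator scent, and control rats stayed in the home cage and had a cage change. A composite score of anxiety-like behavior then separated stress-low animals (scores 0 to 2) from stress-high animals (scores 13 to 15), and control scores ran from 0 to 6. On day 9 tissue was punched from the left basolateral amygdala (BLA) and the left dorsal dentate gyrus (DG), and poly-A RNA was sequenced in bulk. The BLA gave 6 control, 3 stress-low and 3 stress-high libraries for the analysis, and the DG gave 5, 3 and 3. One further control library per region, which stood apart on the first principal component (that of animal 2 for the BLA and of animal 35 for the DG), was left out, since the study also removed 1 control of each region on its principal components.

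Reticulons are membrane proteins that bend the endoplasmic reticulum (ER) into tubules. Rtn4, also called Nogo, is known as an inhibitor of neurite outgrowth: its largest protein form lies in oligodendrocytes and neurons and acts on the receptor Rtn4r at the axon surface. Rtn4rl1 and Rtn4rl2 encode relatives of this receptor that bind other inhibitory molecules, among them proteoglycans of the extracellular matrix and myelin-associated glycoprotein. All 3 receptors are anchored in the outer leaflet of the membrane and need partners such as Lingo1 to pass the signal to RhoA and its kinase ROCK inside the cell. Rtn3 also serves as a receptor for the autophagy of ER tubules and binds the secretase Bace1. In the adult hippocampus this system is known for restraining structural plasticity of axons and dendritic spines.

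Promoter windows were compared because the 3 receptor-side genes Rtn4r, Rtn4rl2 and Lingo1 varied together across BLA libraries and Rtn3 was one of the genes the set was chosen for. RefSeq sequence of the rat assembly GRCr8, from 250 bases before to 50 bases after the gene start, was held for 6 of the 8 genes, all but Rtn4 and Rtn4rl1. Each sequence runs 5′ to 3′ on the strand of the gene. Capitals mark a match on either strand to the half-site of the cyclic AMP response element (TGACG), the GC box (GGGCGG), the half-site of the glucocorticoid response element (AGAACA) or the core of the NRF1 motif (GCGCATGC).
Rtn3 (chr1:214098311-214098610, minus strand): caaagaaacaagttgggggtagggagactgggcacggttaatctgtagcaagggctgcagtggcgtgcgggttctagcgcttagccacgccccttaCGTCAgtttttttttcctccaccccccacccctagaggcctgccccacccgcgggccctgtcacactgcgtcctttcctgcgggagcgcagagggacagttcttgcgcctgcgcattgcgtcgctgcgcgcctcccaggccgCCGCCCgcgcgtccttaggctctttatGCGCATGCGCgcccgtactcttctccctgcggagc
Rtn4r (chr11:96373505-96373804, minus strand): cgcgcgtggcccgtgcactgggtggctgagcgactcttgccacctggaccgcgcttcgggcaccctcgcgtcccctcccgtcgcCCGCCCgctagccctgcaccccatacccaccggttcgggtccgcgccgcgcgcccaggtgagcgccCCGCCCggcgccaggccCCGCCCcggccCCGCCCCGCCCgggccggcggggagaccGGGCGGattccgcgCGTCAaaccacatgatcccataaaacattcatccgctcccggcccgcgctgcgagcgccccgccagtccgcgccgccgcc
Rtn4rl2 (chr3:90377726-90378025, minus strand): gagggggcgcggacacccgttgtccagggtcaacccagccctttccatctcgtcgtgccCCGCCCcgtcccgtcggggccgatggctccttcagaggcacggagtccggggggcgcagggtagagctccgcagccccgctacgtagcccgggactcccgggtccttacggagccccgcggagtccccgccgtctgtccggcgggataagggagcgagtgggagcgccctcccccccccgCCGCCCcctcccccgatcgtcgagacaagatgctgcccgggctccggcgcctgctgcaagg
Lingo1 (chr8:65924117-65924416, minus strand): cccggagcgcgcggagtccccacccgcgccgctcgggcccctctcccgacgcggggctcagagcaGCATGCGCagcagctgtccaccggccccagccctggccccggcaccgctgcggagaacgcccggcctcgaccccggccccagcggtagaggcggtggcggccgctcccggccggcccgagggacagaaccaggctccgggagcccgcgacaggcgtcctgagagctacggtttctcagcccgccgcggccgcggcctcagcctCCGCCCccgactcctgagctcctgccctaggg
The 3 receptor-side windows were rich in G and C, with 78% in Rtn4r, 74% in Rtn4rl2 and 78% in Lingo1, beside a median of 51.7% over all 33469 promoter windows. Rtn3 had 64.3%. The GC box was found 6 times in Rtn4r, 2 times in Rtn4rl2, 1 time in Lingo1 and 1 time in Rtn3, and 33.1% of all windows held it. The NRF1 core stood in Lingo1 and, as 2 overlapping matches, in Rtn3, and 2.47% of all windows held it. The cyclic AMP half-site stood in Rtn3 and Rtn4r, beside 21.2% of all windows. No window of the 6 held the letters AGAACA or their complement, which 20.7% of all windows held. Rtn1 (50% G and C) held only 1 cyclic AMP half-site, and Rtn2 (76.3%) held 4 GC boxes. These are matches of letters in a window and not measurements of binding.

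Total expected counts ranged from 11656439 to 19477932 in the DG and from 12709493 to 22801247 in the BLA, and every stress-high DG library was larger than every stress-low DG library. All 8 genes were well covered and all passed the filter on low counts in both regions: the lowest value was 380 expected counts, for Rtn4rl2 in the BLA, and the highest was 38570, for Rtn3 in the BLA. The tissue labels matched their markers, with Prox1, a transcription factor of granule cells, at 63.0 to 95.5 TPM (transcript abundance scaled to a fixed library total) in the DG and 2.03 to 2.93 TPM in the BLA. Choroid plexus genes were at or near 0 in all groups. The labels of BLA animal 35 disagreed (its library name gives control and its treatment field gives stress). It was taken as a control, and the BLA results that rest on controls are also given without it. Of the stress-low animals, number 33 was sequenced only in the DG and number 30 only in the BLA. The 2 regions came as separate tables, so levels are compared between regions side by side and without a test. The labels also mark each control as low or high, and both kinds were taken as 1 control group. Beyond this and replicate numbers, the labels say of the replicates only that each library came from 1 animal of its group and region. Since all tissue was bulk, a lower level cannot be told apart from fewer cells of a type.

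The reticulons were the most abundant of the 8 genes. TPM, which corrects for transcript length, averaged 1163 for Rtn1, 854 for Rtn3 and 368 for Rtn4 over the 12 BLA libraries, and 1067, 847 and 390 over the 11 DG libraries. These 3 genes kept this order in every library. Rtn2, the reticulon known from muscle and from hereditary spastic paraplegia, was far lower, at 60.0 TPM in the BLA and 74.8 TPM in the DG. Among all genes tested, the mean TPM of Rtn1 stood at percentile 99.65 in the BLA and 99.29 in the DG, and that of Rtn3 at 99.44 and 99.00.
Lingo1 came next after Rtn4, with 243 TPM in the BLA and 146 TPM in the DG. In the BLA 11 of 12 libraries had more Rtn4 than Lingo1, and the 2 ranges overlapped. The 3 receptors were at 71.4 (Rtn4r), 36.8 (Rtn4rl2) and 35.5 TPM (Rtn4rl1) in the BLA. In the DG they were at 130 (Rtn4r), 83.0 (Rtn4rl1) and 65.6 TPM (Rtn4rl2). Rtn4rl2 and Rtn4rl1 could not be ordered in the BLA, where 7 of 12 libraries had more Rtn4rl2. In the DG the neighbours Lingo1 and Rtn4r, Rtn4rl1 and Rtn2, and Rtn2 and Rtn4rl2 also overlapped, with 9 of 11 libraries in the order given.

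The receptor side differed most between the regions. The 2 tables also differed in the share of expected counts that were not whole numbers, given below with transcript length. Its part in the level ratios was not tested. In the 9 animals with a used library of both regions, all 3 receptors had a higher TPM in the DG in 9 of 9 animals, by a geometric mean ratio of 1.82 for Rtn4r (range 1.43 to 2.31), 2.36 for Rtn4rl1 (2.11 to 3.01) and 1.80 for Rtn4rl2 (1.3 to 2.18). Lingo1 went the other way and was lower in the DG in all 9 animals, with a geometric mean DG to BLA ratio of 0.597 (range 0.481 to 0.689). The reticulons were closer to each other in the 2 regions. Rtn2 was higher in the DG in 9 of 9 animals (ratio 1.26) and Rtn1 lower in 9 of 9 (ratio 0.913), while Rtn3 (ratio 0.991) and Rtn4 (ratio 1.05) were higher in 5 and 6 of the 9. Per unit of the 3 receptors summed, control libraries held 2.38 ± 0.602 times as much Rtn4 in the BLA (SD, n = 6) and 1.25 ± 0.137 times in the DG (SD, n = 5).

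**Figure D1:**
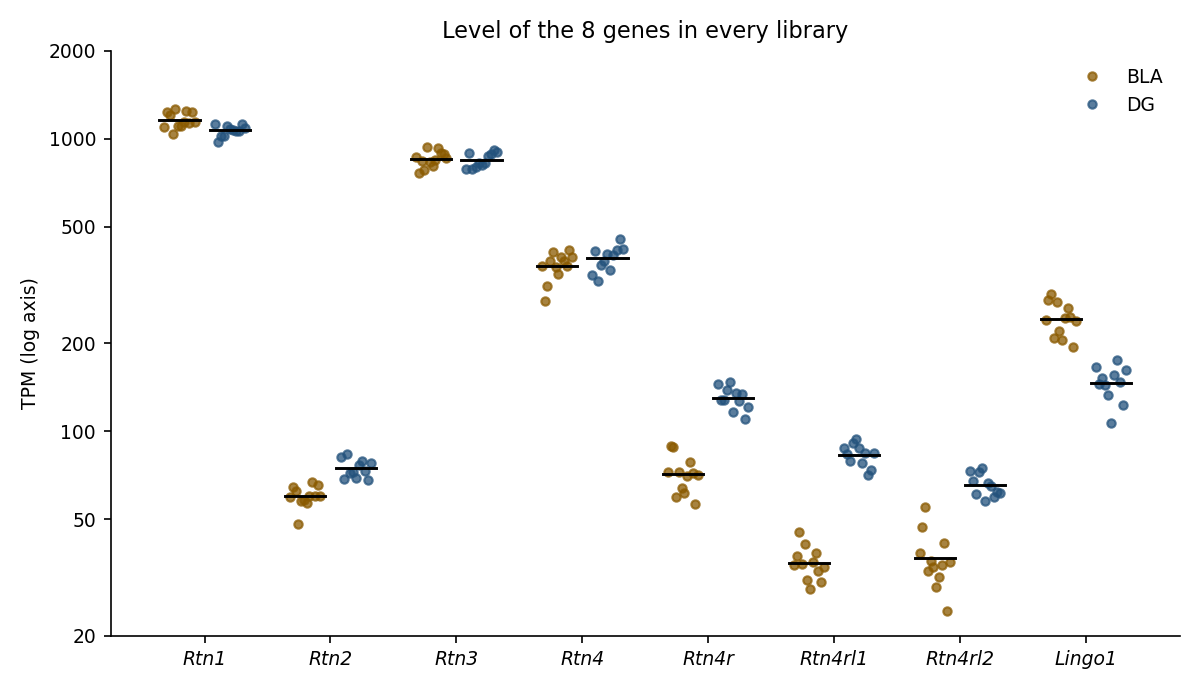
TPM on a log axis of the 8 genes in each of the 12 BLA and 11 DG libraries, 1 point a library, with the mean as a black bar. Rtn1, Rtn3 and Rtn4 lie at the top in both regions, the 3 receptors lie higher in the DG than in the BLA, and Lingo1 lies lower in the DG.

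The values that the set was chosen for are those of Rtn3 and Rtn4 in the DG. Rtn4 measured 343, 413, 328, 370 and 382 TPM in the 5 controls (animals 2, 14, 17, 28 and 32), 416, 456 and 420 TPM in the stress-low animals (22, 33 and 34), and 404, 357 and 399 TPM in the stress-high animals (7, 19 and 20). All 3 stress-low libraries lay above every other DG library used, but the lowest of them, at 416 TPM, was next to control animal 14 at 413 TPM. In the fit on counts, Rtn4 was 15.6% higher in stress-low than in control animals (log2 fold change 0.21, SE 0.08), and it was lower in stress-high than in stress-low animals (a change of -9.54%, log2 fold change -0.14, SE 0.09).
Rtn3 measured 789, 896, 787, 800 and 827 TPM in the controls, 886, 914 and 904 TPM in the stress-low animals, and 814, 826 and 871 TPM in the stress-high animals. The stress-low libraries lay above all stress-high libraries, and the same control animal 14 lay inside the stress-low range. Rtn3 was 11.2% higher in stress-low than in control animals (log2 fold change 0.15, SE 0.06) and lower in stress-high than in stress-low animals (a change of -6.87%, log2 fold change -0.10, SE 0.07). Leaving out each library in turn gave 0.18 to 0.29 for Rtn4 and 0.13 to 0.21 for Rtn3 in the contrast with controls, with the highest values in both cases without control animal 14. With the left-out control animal 35 included (699 TPM for Rtn3 and 395 TPM for Rtn4), they were 0.20 for Rtn4 and 0.16 for Rtn3.

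Among the 8 genes, only Rtn3 and Rtn4 in the contrast of the stressed groups, and Rtn4 in the contrast with controls, had DG groups that did not overlap. Over all 14080 genes tested in the DG, 8.69% did not overlap between stress-low and stress-high animals and 3.71% did not overlap between control and stress-low animals. In edgeR an unadjusted p under 0.05 was reached by 3.12% and 6.90% of genes in these contrasts, and an adjusted p under 0.05 by 0.00% in both. Nothing is read from these shares here, because the contrasts chose the genes.

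**Figure D2:**
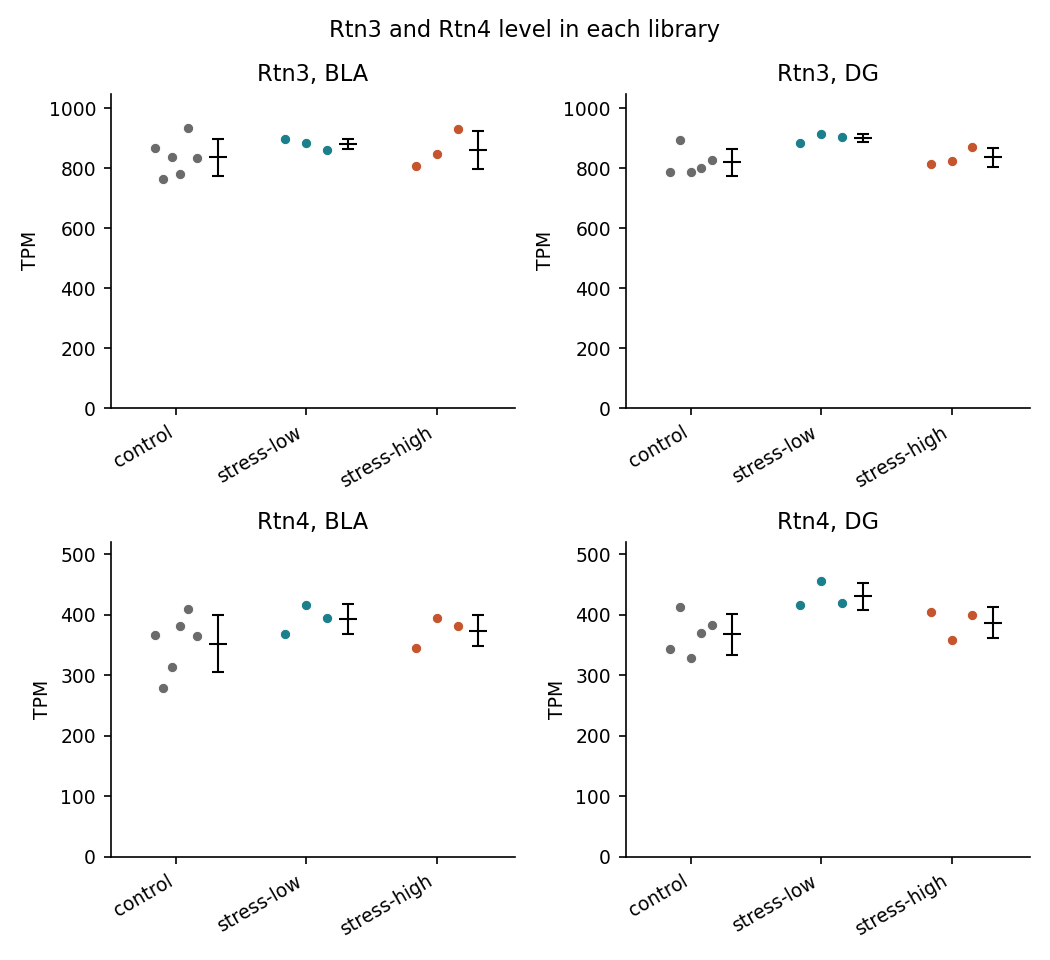
TPM of Rtn3 and Rtn4 in each BLA and DG library by group, 1 point a library, with the mean and SD in black at the right of each group. In the DG the 3 stress-low animals lie at 886 to 914 TPM for Rtn3 and 416 to 456 TPM for Rtn4, and in the BLA the groups overlap.

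Rtn1 and Rtn2 did not share the DG pattern of Rtn3 and Rtn4. Rtn1 measured 973 to 1127 TPM in DG controls (median 1025), 1061, 1121 and 1091 TPM in stress-low and 1076, 1075 and 1064 TPM in stress-high animals, so that both stressed groups lay inside the control range. Rtn2 measured 68.8 to 83.5 TPM in controls (median 72.7), 72.9, 68.2 and 77.7 TPM in stress-low and 69.2, 76.6 and 78.8 TPM in stress-high animals, again with overlapping groups. Their log2 fold changes in the 3 DG contrasts lay between -0.04 and 0.05. Rtn4 made up 17.25 ± 0.511% of the summed TPM of the 4 reticulons in stress-low animals (SD, n = 3), 15.9 ± 1.22% in controls (n = 5) and 16.3 ± 0.913% in stress-high animals (n = 3).

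The mean levels of the 3 Nogo receptors, the receptor side of the pathway, were lower and not higher in the DG of stress-low animals than in controls, again as a description. Rtn4r measured 128 to 148 TPM in controls (median 138), 135, 110 and 121 TPM in stress-low and 117, 135 and 127 TPM in stress-high animals. Rtn4rl1 measured 79.0 to 94.0 TPM in controls (median 88.0), 70.8, 73.8 and 84.0 TPM in stress-low and 87.3, 77.6 and 84.0 TPM in stress-high animals. Rtn4rl2 measured 61.0 to 74.6 TPM in controls (median 72.7), 59.6, 62.0 and 61.6 TPM in stress-low and 57.9, 66.4 and 65.1 TPM in stress-high animals. All stress-low values lay below the control median, and the groups overlapped for all 3 genes.
From control to stress-low animals the log2 fold changes were -0.16 for Rtn4r (SE 0.08), -0.18 for Rtn4rl1 (SE 0.07) and -0.18 for Rtn4rl2 (SE 0.08), or changes of -10.6%, -11.7% and -12.0%. From stress-low to stress-high animals they were 0.06, 0.13 and 0.06 with SEs of 0.09, 0.08 and 0.08. With control animal 35 included the 3 values against controls were -0.26, -0.18 and -0.26. The value of Rtn4r depended on single stress-low animals, with -0.09 without animal 33 and -0.25 without animal 22. Lingo1 did not share this pattern, with 133 to 166 TPM in controls, 148, 123 and 162 TPM in stress-low animals, 107, 155 and 175 TPM in stress-high animals, and log2 fold changes of -0.02 (SE 0.13) and 0.02 (SE 0.14). The ratio of Rtn4 to the 3 receptors summed was 1.25 ± 0.137 in controls (SD, n = 5), 1.67 ± 0.164 in stress-low animals (n = 3) and 1.42 ± 0.131 in stress-high animals (n = 3).

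**Figure D3:**
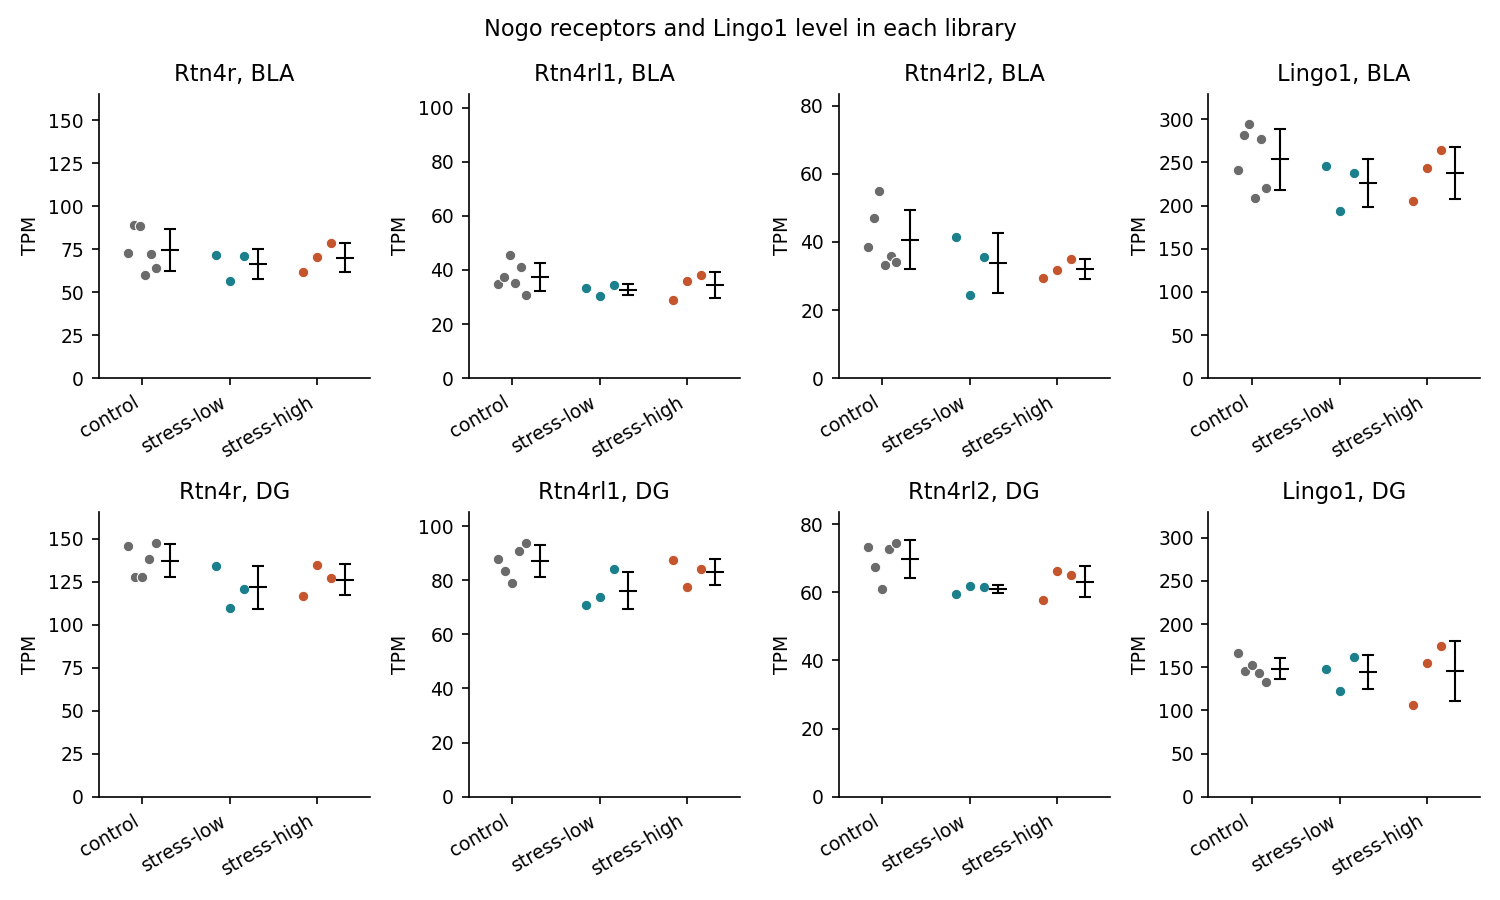
TPM of Rtn4r, Rtn4rl1, Rtn4rl2 and Lingo1 in each BLA and DG library by group, 1 point a library, with the mean and SD in black. The groups overlap for all 4 genes in both regions.

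Control and stress-high animals were also compared in the DG, a contrast that did not choose the set. It is not independent of that choice. The edgeR fit estimated the spread over all 3 groups, and the same controls served in a contrast that chose the set. None of the 8 genes passed the test (edgeR's quasi-likelihood test, Benjamini-Hochberg over all genes, adjusted p = 1 for each), 0.00% of all genes passed it, and none of the 8 reached an unadjusted p under 0.05, which 2.19% of all genes did. Rtn4 was 4.55% higher (log2 fold change 0.06, SE 0.08) and Rtn3 3.55% higher (log2 fold change 0.05, SE 0.06) in stress-high animals. On the receptor side Rtn4rl2 was lower (a change of -8.47%, log2 fold change -0.13, SE 0.07) as was Rtn4r (a change of -6.77%, log2 fold change -0.10, SE 0.08).
The exact two-sided permutation test of TPM gave p = 0.393 for Rtn4, 0.536 for Rtn3, and 0.143 for both Rtn4rl2 and Rtn4r. With 5 against 3 libraries such a p cannot become very small. No gene of the 8 had groups that did not overlap, beside 1.46% of all genes. Without control animal 14 the log2 fold changes of Rtn4 and Rtn3 became 0.14 and 0.11, both with an unadjusted p under 0.05 in edgeR, so their size depends on that control. With control animal 35 included Rtn4r and Rtn4rl2 had log2 fold changes of -0.20 each, and without stress-high animal 7 they had -0.06 and -0.08. Without stress-high animal 19 Rtn4r had -0.16. Without control animal 17 Rtn4rl2 had -0.18 and an unadjusted p under 0.05.

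In the BLA the 8 genes were first compared between the 2 stressed groups. Rtn4 measured 367, 417 and 394 TPM in stress-low animals (22, 30 and 34) and 345, 394 and 382 TPM in stress-high animals (7, 19 and 20), and the groups overlapped. Its log2 fold change was -0.02 (SE 0.09, exact permutation p = 0.5 on TPM). Rtn3 measured 898, 885 and 862 TPM in stress-low and 807, 848 and 931 TPM in stress-high animals, also with overlap, and its log2 fold change was 0.02 (SE 0.06, exact permutation p = 0.6).
The other 6 genes had log2 fold changes from -0.04 (Rtn4rl2) to 0.11 (Rtn4r). None of the 8 had an adjusted p under 0.05 (0.00% of 15230 genes did), an unadjusted p under 0.05 (1.98% did) or groups without overlap (5.89% did). Exact permutation p-values of TPM ranged from 0.5 to 0.9, and 3 against 3 libraries cannot go below 0.1.

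Compared with controls, BLA stress-low animals had receptor-side values that were lower on average. Rtn4rl1 measured 34.9, 37.4, 45.4, 35.1, 41.3 and 30.9 TPM in the controls (animals 14, 17, 27, 28, 32 and 35) and 33.2, 30.5 and 34.4 TPM in the stress-low animals. All 3 stress-low values lay below 5 of the 6 controls, and animal 35, the control with the disputed label, lay among them. The log2 fold change was -0.23 (SE 0.09), with an edgeR adjusted p of 0.9998 and an exact permutation p of 0.119 on TPM.
Rtn4rl1 was the only one of the 8 genes with an unadjusted p under 0.05 in this contrast, and 2.75% of all genes had one. Without animal 35 its log2 fold change was -0.27. With the left-out control animal 2 included it was -0.18, and without stress-low animal 30 it was -0.145. Without control animal 27 it was -0.186, and without control animal 32 it was -0.213. In each of these fits, animal 35 aside, the unadjusted p was above 0.05 in edgeR.

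Rtn4rl2, Rtn4r and Lingo1 were lower by similar amounts in BLA stress-low animals. Rtn4rl2 measured 33.4 to 55.1 TPM in controls (median 37.2) and 41.4, 24.3 and 35.7 TPM in stress-low animals, with a log2 fold change of -0.30 (SE 0.17). Rtn4r measured 59.8 to 89.4 TPM (median 72.6) and 71.9, 56.3 and 71.0 TPM, with a log2 fold change of -0.20 (SE 0.12). Lingo1 measured 208 to 294 TPM (median 259) and 246, 194 and 238 TPM, with a log2 fold change of -0.20 (SE 0.11). Only animal 30 lay below all controls, and it did so for each of these 3 genes.
Their exact permutation p-values on TPM were 0.310, 0.333 and 0.286, with an edgeR adjusted p = 0.9998 in each case. Without animal 30 the log2 fold changes shrank to -0.07 for Rtn4rl2, -0.05 for Rtn4r and -0.06 for Lingo1. Without control animal 35 they were -0.34, -0.23 and -0.225. The summed TPM of 3 genes of glutamatergic neurons (Slc17a7, Camk2a and Rspo2) ran from 1592 to 2007 in the stress-low and from 1622 to 2195 in the control libraries, and that of 8 oligodendrocyte genes from 2932 to 4547 and from 2508 to 3408. Their part in the result was not tested.

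On the ligand side Rtn4 measured 279 to 409 TPM in BLA controls (median 365), which spans the 367, 417 and 394 TPM of stress-low animals except the highest, with a log2 fold change of 0.10 (SE 0.08, exact permutation p = 0.190 on TPM). Rtn3, at 763 to 935 TPM in controls (median 837), had a log2 fold change of 0.03 (SE 0.05, exact permutation p = 0.286). Rtn2 had 0.04 (SE 0.07). Rtn1 had -0.04 (SE 0.06) in the fit on counts although its mean TPM was 1158 in controls and 1171 in stress-low animals, so its sign depended on the scale. Over all genes tested in this contrast the median difference of log2(TPM + 1) was 0.0355. The median log2 fold change in the fit on counts was -0.0020. The permutation tests of TPM were not corrected for this shift. None of the 8 genes had an adjusted p under 0.05 (0.00% of all genes) or groups that did not overlap (1.39% of all genes).

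BLA stress-high animals differed from controls most in Rtn4rl2, which measured 29.3, 31.8 and 35.0 TPM beside 33.4 to 55.1 TPM in controls. Of the 3 stress-high values, 2 lay below all controls. From 6 against 3 libraries, which limit how small such a p can be, the exact permutation p on TPM was 0.0714. The log2 fold change was -0.34 (SE 0.17), a change of -21.0%. Without animal 35 it was -0.38, and with control animal 2 included -0.27. Without control animal 32 it was -0.38 and reached an unadjusted p under 0.05 in edgeR.
Rtn4rl1 (-0.13, SE 0.09), Lingo1 (-0.09, SE 0.10) and Rtn4r (-0.08, SE 0.12) were nearer to no change, and Rtn4 (0.08, SE 0.08), Rtn2 (0.07, SE 0.07), Rtn3 (0.05, SE 0.05) and Rtn1 (0.00, SE 0.06) likewise. None of the 8 had an adjusted p under 0.05 (0.00% of all genes), an unadjusted p under 0.05 (2.57%) or groups without overlap (0.978%).

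**Figure D4:**
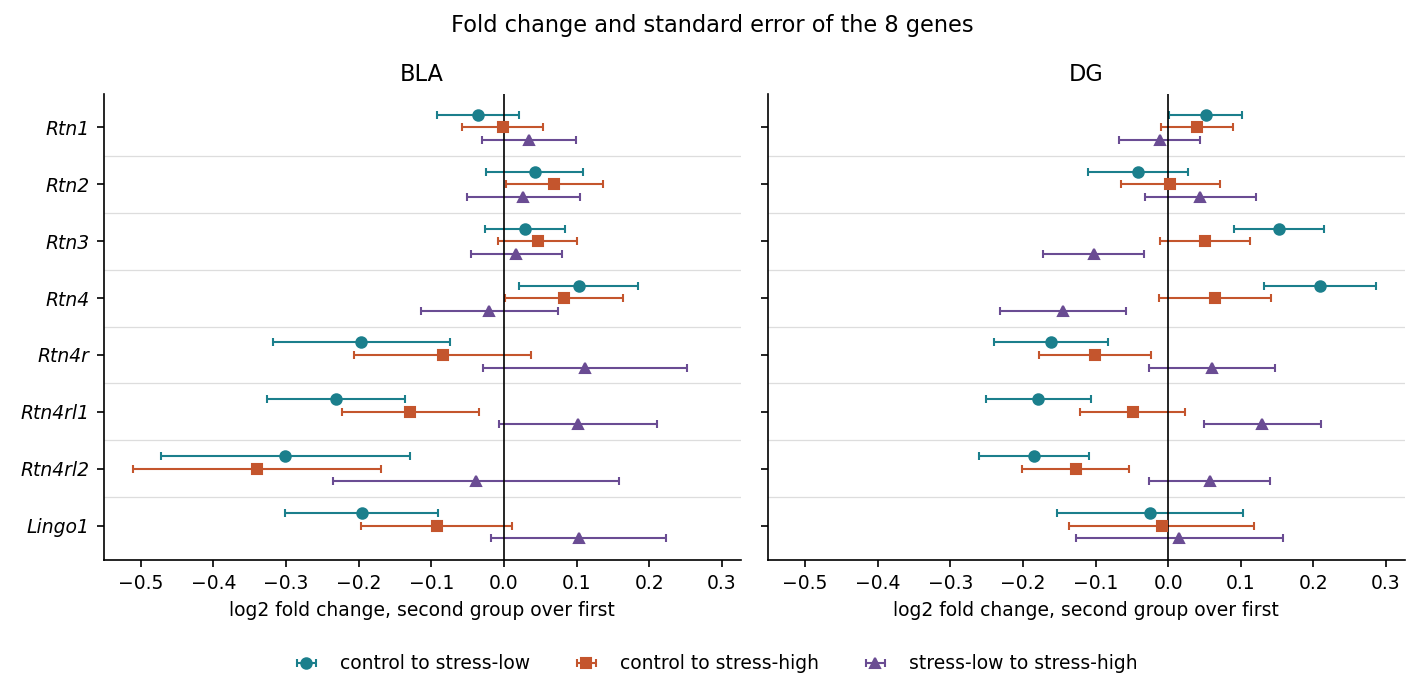
Log2 fold changes of the 8 genes (points) with their standard errors (bars) from the fits on counts, for 3 contrasts in the BLA and in the DG, positive where the second group is higher. In both regions Rtn4 lies right of 0 and the 3 receptors left of 0 in the contrasts of controls with stressed animals. The 2 DG contrasts that involve stress-low animals were not tested for these genes.

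Whether the change from control to stress-high animals differed between the regions was tested in 1 fit over both. That fit took the 2 libraries of 1 animal as separate samples. The difference, DG minus BLA, was at most 0.21 (Rtn4rl2, SE 0.20) in log2 units. For Rtn4 it was -0.02 (SE 0.12) and for Rtn3 0.01 (SE 0.08). None of the 8 genes passed the test (adjusted p = 1 by edgeR), nor did any other gene (0.00%), and 0 of 8 had an unadjusted p under 0.05 beside 1.84% of 15453 genes. The signs of the fold changes in the 2 regions come from libraries of many of the same animals, and controls are shared between the contrasts within a region.

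Rtn4 is listed with 4 transcripts and Rtn1 and Rtn3 with 2 each, and the deposited gene length is their mean weighted by abundance, so it moves with the mix of transcripts. It cannot name the transcript, and the protein forms of Nogo are not resolved at this level. For Rtn4 this length was 2698 to 3153 bases in BLA controls and 2494 to 2734 bases in DG controls. It was shorter in the DG in 9 of 9 animals, by 238 ± 79.6 bases (SD), whereas for Rtn3 it was longer in the DG in 9 of 9 animals, by 33.3 ± 19.0 bases. For Rtn1 it was longer in 4 and shorter in 5 animals.
The share of expected counts that were not whole numbers, a sign of reads divided between transcripts or genes, also differed between the tables (18.8% to 26.9% per BLA library, 5.67% to 6.39% per DG library), and its part in this result was not tested. Between the groups of one region Rtn4 length overlapped in all 6 contrasts. In DG stress-low animals it was 2553, 2483 and 2625 bases and in stress-high animals 2422, 2637 and 2631 bases. Rtn3 length was lower in BLA stress-low (3014, 3000 and 3016 bases) than in all BLA stress-high animals (3032, 3029 and 3035 bases), a difference of 22.0 bases with an exact permutation p of 0.1, the smallest that 3 against 3 libraries can give. Rtn3 length overlapped in every other contrast, and Rtn1 length overlapped in all 6. The share of all genes whose lengths do not overlap was not computed, so nothing is read from this difference.

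**Figure D5:**
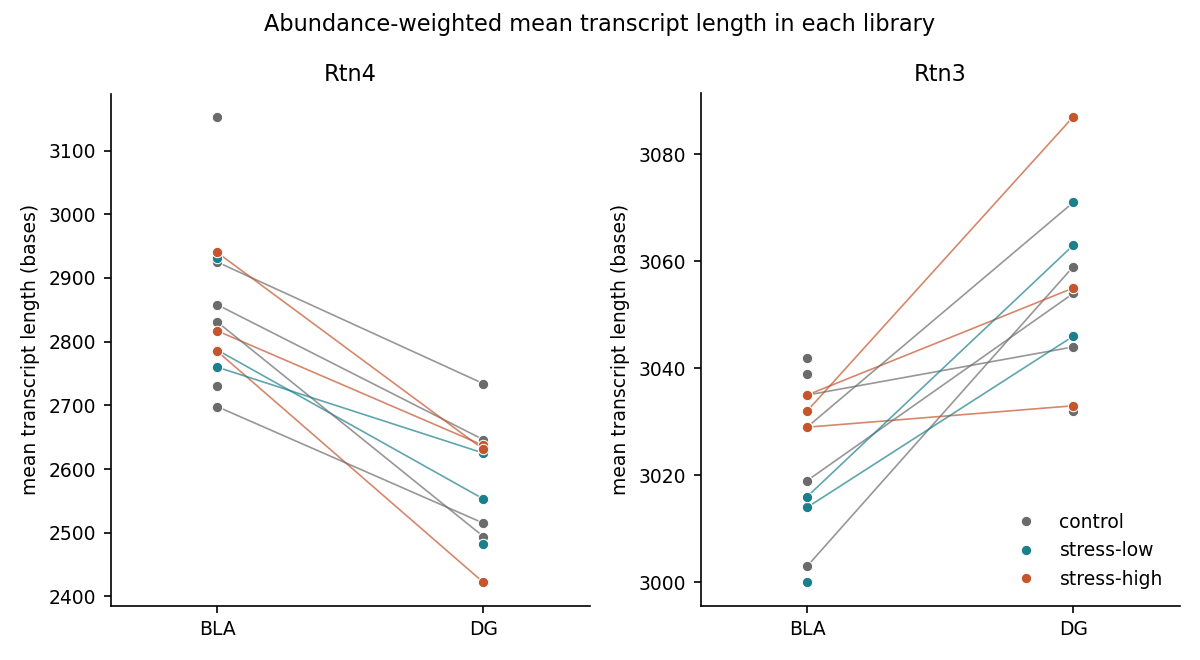
Abundance-weighted mean transcript length in bases of Rtn4 (left) and Rtn3 (right) in each library, with a line joining the 2 libraries of 1 animal and colors for the group. All 9 lines fall from BLA to DG for Rtn4, and all 9 go up for Rtn3. The vertical axes do not start at 0.

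Across the 12 BLA libraries the receptor side varied as a block. With group means removed, log2(TPM + 1) of Rtn4r had a Pearson r of 0.943 with Lingo1, 0.909 with Rtn4rl2 and 0.741 with Rtn4rl1. Rtn4 had r = -0.604 with Rtn4r and -0.665 with Rtn4rl2, and 0.574 with Rtn3. These points share libraries, and TPM of all genes in a library sum to 1 fixed total. Without removal of group means, Rtn4r and Lingo1 had r = 0.949 and 0.947 with the summed glutamatergic neuron genes, and Rtn3 had 0.849 with the summed TPM of 5 neuronal genes (Snap25, Syt1, Rbfox3, Tubb3 and Eno2). These lists were not alone. Rtn4r and Lingo1 had r = 0.70 and 0.734 with the summed granule cell genes (Prox1, C1ql2 and Calb1). In the BLA that sum was mostly Calb1 (median 135.4 TPM), beside medians of 2.57 TPM for Prox1 and 2.805 TPM for C1ql2. It is therefore no measure of granule cells there. With the summed oligodendrocyte genes Rtn4 had r = 0.57 and Rtn4rl2 had -0.631.
In the 11 DG libraries the block was looser. With group means removed Rtn4r had r = 0.455 with Lingo1, 0.594 with Rtn4rl2 and 0.0765 with Rtn4rl1. Rtn3 and Rtn4 had r = 0.765, and Rtn2 had -0.826 with Rtn4. Lingo1 again followed the glutamatergic neuron genes (r = 0.901), as did Rtn2 (r = 0.851), and Rtn4 had -0.665 with them. With 5 genes of striatal or central amygdala neurons (Drd1, Drd2, Ppp1r1b, Penk and Prkcd) Rtn4 had r = -0.697 and Rtn3 -0.627. In the DG that sum was mostly Ppp1r1b and Penk (medians 100.8 and 50.56 TPM). Drd1, Drd2 and Prkcd had medians of 8.20, 0.77 and 1.56 TPM, so the sum is no measure of such neurons there. The summed TPM of the glutamatergic neuron genes was 2692 to 2974 in stress-low, 2916 to 3225 in control and 2661 to 3208 in stress-high DG libraries. The part of both lists in the Rtn4 values was not tested.

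Markers of most other cell types overlapped between the DG groups. The exception was the sum of 2 oligodendrocyte progenitor genes (Pdgfra and Cspg4), at 19.9 to 24.6 TPM in controls, 16.3 to 22.5 TPM in stress-low and 18.2 to 19.5 TPM in stress-high animals, so that the stress-high libraries lay below all controls. The 8 oligodendrocyte genes summed to 1627 to 2218 TPM in controls, 2037 to 2198 TPM in stress-low and 1834 to 2200 TPM in stress-high animals. Astrocyte genes (4) summed to 713 to 1130, 706 to 892 and 722 to 778 TPM, microglial genes (4) to 65.8 to 82.7, 63.6 to 74.7 and 62.1 to 77.0 TPM, and endothelial genes (3) to 42.1 to 60.1, 39.0 to 50.04 and 45.0 to 46.2 TPM in the same order. Granule cell genes (3 of 4 found) summed to 451 to 721, 442 to 521 and 468 to 583 TPM. Neuronal genes (5) summed to 3418 to 3745, 3591 to 3904 and 3254 to 3676 TPM, with the highest stress-low library above the highest control. No marker of these lists was at 0 in any group. The part of these cell types in the values of the 8 genes was not tested.

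Levels of each gene in the BLA and in the DG were compared across animals. Over 9 animals Pearson r of log2(TPM + 1) was 0.654 for Rtn3 (exact permutation p = 0.0640, adjusted over the 8 genes 0.32), with a Spearman coefficient of 0.667 (exact permutation p = 0.0589, adjusted 0.236), and r fell to 0.263 without the 2 animals farthest from the median. Rtn2 had r = 0.567 (exact permutation p = 0.105, adjusted 0.32) and a Spearman coefficient of 0.8 (exact permutation p = 0.0138, adjusted 0.111), and r was 0.807 without the 2 farthest animals. Rtn4 had r = 0.545 (exact permutation p = 0.127, adjusted 0.32) and a Spearman coefficient of 0.0167 (exact permutation p = 0.982), and r changed to -0.475 without the 2 farthest. For Rtn4r r was 0.0124 and for Rtn4rl2 -0.139. None of the 8 genes passed after adjustment, and the animals belong to 3 groups, with 4 controls, 2 stress-low and 3 stress-high, which are too few for a value within groups.

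Among the genes whose levels followed Rtn4 most closely over the 11 DG libraries were Capza2, which caps actin filaments (r = 0.976), and Arl8b, a GTPase of lysosome transport (r = 0.957), of 10910 genes compared. For Rtn3 in the DG they were Rnf14 (r = 0.962), Rab6a, a GTPase of Golgi transport (r = 0.960), and Tmem35 (r = 0.944). With group means removed these 5 values were 0.891 to 0.962. Over the 12 BLA libraries other genes led among 11155 compared. Kdm6a, a histone demethylase (r = 0.934), Phip (0.923) and Ppp1cc, a phosphatase subunit (0.918), were nearest to Rtn4, and Opa1, which fuses inner mitochondrial membranes (0.974), Ywhab (0.946) and Mtmr4 (0.941) to Rtn3. These highest values were picked from all genes compared and are a description.

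Of the other molecules of the pathway, none passed after adjustment in any contrast, and the DG values with stress-low animals come from the contrasts that the set was chosen in. Among 18 partners and further ligands of the Nogo receptors, 13 could be tested in the DG and 2 had an unadjusted p under 0.05 from control to stress-low animals, both higher. They were Omg, the oligodendrocyte-myelin glycoprotein that also binds Rtn4r (99.45 ± 9.25 TPM in controls, 114 ± 7.25 in stress-low, SD), with a log2 fold change of 0.20 (SE 0.09), and Lingo2, a relative of Lingo1, with 0.18 (SE 0.07), each with an edgeR adjusted p of 0.7176. Lingo2 was also the 1 gene of this list with a p under 0.05 from stress-low to stress-high animals, at 20.3 ± 1.60 and 16.6 ± 0.715 TPM (SD, n = 3 each) without overlap and with a log2 fold change of -0.29 (SE 0.08, edgeR adjusted p = 0.9996). Mag, the myelin-associated glycoprotein, did not follow, at 51.9 ± 8.06 TPM in controls and 52.3 ± 4.74 in stress-low animals, nor did Crtac1, an antagonist of Rtn4r (68.5 ± 6.72 and 68.3 ± 5.50 TPM). Lgi1, another ligand that opposes Nogo signaling, was at 231 ± 29.1 and 264 ± 23.5 TPM (log2 fold change 0.20, SE 0.10, edgeR adjusted p = 0.7388). Ngfr, a signaling partner in Nogo receptor complexes, was at 0.230 ± 0.0963 TPM in BLA controls (SD, n = 6) and did not pass the count filter in the DG.

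Inside the cell, the kinases Rock1 (log2 fold change 0.31, SE 0.11) and Rock2 (0.25, SE 0.10), which act downstream of RhoA, and Dpysl2, a regulator of microtubules in axons (0.15, SE 0.06), were higher at an unadjusted p under 0.05 from DG control to stress-low animals, each with an edgeR adjusted p of 0.7176. Rhoa itself was at 201 ± 8.16 TPM in controls (SD, n = 5) and 200.0 ± 6.58 TPM in stress-low animals (n = 3).
Of 14 other ER-shaping proteins, 3 were higher at an unadjusted p under 0.05 (Atl2, Reep1 and Arl6ip1, log2 fold changes 0.23, 0.17 and 0.14) and 1 lower (Reep6, -0.20), with a list median of 0.0280 beside -0.0030 over all genes tested. Arl6ip1 and Reep6 were named after their values were seen. Atl1, the neuronal atlastin that fuses ER tubules, was at 107 ± 2.19 and 112 ± 3.20 TPM (log2 fold change 0.08, SE 0.06).
Of 6 tested ER-phagy receptors Retreg1 was higher (log2 fold change 0.21, SE 0.08, edgeR adjusted p = 0.7176), and of 9 genes of App and its secretases none had a p under 0.05. Bace1, which Rtn3 binds, was at 61.5 ± 4.06 and 60.7 ± 2.10 TPM. Together 9 of 54 tested genes of the 5 lists were higher and 1 lower at this threshold, beside 6.90% of all genes in either direction. Nothing is read from this count, because the contrast chose the set and the lists use the same stress-low libraries. In the same contrast in the BLA 0 of 55 tested genes of the 5 lists had an unadjusted p under 0.05 in edgeR, beside 2.75% of all genes.

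In the other contrasts few genes of the lists had an unadjusted p under 0.05. From DG control to stress-high animals it was 0 of 54 and from DG stress-low to stress-high 1 of 54 (Lingo2). In the BLA Adam22, the neuronal receptor of Lgi1, was higher in stress-high animals (42.7 ± 6.43 TPM, SD, n = 3) than in stress-low animals (38.4 ± 2.22 TPM, log2 fold change 0.18, SE 0.07) and than in controls (38.4 ± 3.46 TPM, log2 fold change 0.14, SE 0.06), with overlap and an edgeR adjusted p of 1 in both cases. The BLA contrasts of stress-high animals with controls and with stress-low animals share the stress-high libraries.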

How the data were processed

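Poly-A RNA from punches of the BLA and DG was measured by RNA-seq. The authors aligned reads to the rat build Rn5 with Ensembl build 75 annotation using STAR 2.6.0a and estimated expression with RSEM 1.3.1. They deposited 1 table per region with an expected count, a TPM value and an abundance-weighted transcript length per gene and library. Deposited TPM values are relative to 1 library and were not rescaled. Other deposited columns were not used.

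Groups were taken from the labels. Expected counts were rounded to whole numbers and tested with edgeR 4.0.16 (TMM normalization, quasi-likelihood test, Benjamini-Hochberg over all genes tested) in R 4.3.3, after filterByExpr at a count of 10. Each region had its own fit of 3 groups. The threshold was an adjusted p of 0.05. EBSeq, which the study used, was not run. Exact two-sided permutation tests of TPM used scipy 1.17.1. The control farthest out on the first principal component of log2(TPM + 1) was left out in each region. Likeness was Pearson's r of log2(TPM + 1) over genes whose mean TPM was 5 or more. In the pathway lists 10 genes were named whatever their values, with up to 2 more per list and comparison by smallest p. The 8 genes, the lists and the markers were chosen with earlier results of these data known. The code was tested on simulated data. As alternatives the fits were repeated with each library left out, with every mapped library kept, with a replicate block, without the count filter, with RLE scaling, on the compared pair of groups alone, with DESeq2 1.42.0 and with limma 3.58.1 on TPM. Replicates are separate animals of 1 group, so p-values other than those of the region difference measure the spread between these animals. The fit of the region difference took both libraries of 9 animals as separate samples. That fit was also repeated by limma-voom with the animal as a random block. Some genes that these rules select are not reported here.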

Additional observations from a re-analysis of the deposited data

Results flagged for a closer look

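Of 22 checks for a single library far from the rest of its group, 1 was positive. The mean transcript length of Rtn1 was 1690 bases in DG control animal 14, below the 1708 to 1713 bases of the other DG controls used. Such a check flags about 1 in 20 groups by chance. The same animal had the highest Rtn3 and Rtn4 levels of the DG controls.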

How the results depend on the processing

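In the 3 BLA contrasts, the DG contrast of control with stress-high animals and the region difference, 0 of the 8 genes had an adjusted p under 0.05 under every alternative run, with the smallest adjusted p at 0.9948. Unadjusted p-values under 0.05 came in 15 of 144 values for BLA control to stress-low, in 3 of 144 for BLA control to stress-high (Rtn4rl2 in each) and in 3 of 136 for DG control to stress-high. In DG control to stress-low animals the number of genes with the higher level in stress-low was 3, with 3 to 5 when 1 library was left out (5 without stress-low animal 33). From DG stress-low to stress-high it was 3, with 3 to 6 (5 without stress-high animal 19, 6 without stress-low animal 33). The cause was not tested. Without BLA stress-low animal 30, Rtn4rl2 from stress-low to stress-high changed from -0.04 to -0.27. The replicate block gave Rtn4rl1 a log2 fold change of -0.26 in BLA control to stress-low and changed no call. Same-numbered libraries did not deviate together (median r of 0.00203 in the BLA and -0.0260 in the DG), so the numbers do not pair the samples. Sums over identifiers of 1 name were not run because each gene had 1 identifier. Rtn3, Rtn4 and the 3 receptors kept their sign in every alternative of the contrasts with controls. Each stressed group held 3 animals, and no gene of any contrast passed adjustment over all genes in edgeR. Gene-level values do not separate transcripts or cell types.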
